A study of Rattus norvegicus with 6 samples.

Results

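Ultraconserved elements are stretches of genomic DNA whose sequence is identical in human, mouse and rat. Many lie in or beside genes for RNA-binding proteins, where they often include exons that bring about decay of the host message, and many others lie near genes for developmental transcription factors, where some act as enhancers. RNA can be made from either strand of an element, and such RNAs are known as transcribed ultraconserved regions. The array carried 1 probe for each strand of 481 elements, 962 probes among the 24684 that were not controls, and they were taken by their names, "uc." with a number and a strand sign. The strand is that of the probe's name. Probe sequences and genome positions were not used here. A probe inside an exon can also bind the host gene's message, which cannot be told apart from a separate transcript.

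RNA came from pancreatic islets, the endocrine cell clusters of the pancreas, of 3 adult male rats and of 3 pools of rats aged 10 days (P10), with 1 array per sample. The strain, the adult age, the sex of the P10 rats and the number of rats in a pool are not given in the sources used here. A change is adult minus P10 on the log2 scale, with the standard error (SE) and adjusted p of limma, and a probe was called where that p was under 0.05. Adult arrays 2 and 3 were counted as 1 sample, and so were P10 arrays 1 and 2, since their differences were close to those between spots of one probe, which leaves n = 2 per stage. The labels describe these arrays as different rats and different pools, and whether the averaged arrays hold RNA of separate animals was not settled by the values. By the file headers, adult array 1 had the same scan date as the P10 arrays, and adult arrays 2 and 3 had another. Arrays with the same scan date are taken here to share a slide, slide 1 or slide 2, which the headers were not used to check further. Slide and rat cannot be told apart in the spread of the adult samples. Each array had 17829 to 18731 probes well above its background and 0 saturated ones. Insulin (Ins1, Ins2) and glucagon (Gcg) probes were well above background on all 6 arrays.

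On any single array most ultraconserved element probes were not well above background. Between 292 and 353 of the 962 were well above background per array, or 30.4% to 36.7%, against 72.2% to 75.9% of all probes. For 458 probes this held on no array, and for 124 elements neither strand rose above background on any array. To be tested a probe had to stand well above background on each of the 3 arrays of one stage or the other, which 320 probes met (33.3%, against 74.4% of all probes). These were 165 plus-strand and 155 minus-strand probes. Both strands were tested for 71 elements, the plus strand alone for 94, the minus strand alone for 84 and neither for 232. Well above background on all 6 arrays were 214 probes, 107 of each strand, and the same 214 were the ones listed in the authors' deposited table of normalized long non-coding RNA values.

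Of the 320 tested probes 37 were higher in adults, 123 were lower and 160 did not pass the test. Over all tested probes 52.3% were called, 21.3% as higher and 31% as lower, and for ultraconserved elements the shares were 50%, 11.6% and 38.4%. The median change was -0.77, against -0.23 over all tested probes. A tested probe may have passed the filter only through the stage in which it was bright: 28 of the 123 lower probes were above background on no adult array, and 14 of the 37 higher ones on no P10 array. Counts, medians and plots use the fitted value for them too, and single ones are given as bounds. With the 51 tested probes that were dim in 1 stage at their bounds, the median stayed -0.77. How the directions balanced hung on how arrays were scaled. Each array was set to its own 75th percentile, which in log2 signal was 10.93 to 11.36 in adults and 9.92 to 9.99 at P10, and the 458 probes above background on no array had a median change of -1.03 after this step but of 0.10 before it. With quantile normalization 77 probes were higher and 106 lower, or 24.1% and 33.1%, against 28.4% and 28.7% of all probes, with medians of -0.24 and -0.02. Lower calls made up 76.9% of the ultraconserved element calls by the main scaling and 57.9% with quantile normalization. All 37 higher probes and 100 of the 123 lower ones kept their call with quantile normalization, and 0 were called in the opposite direction. The 23 lower probes that lost it stood between -2.02 and -0.55 by the main scaling. Among the 214 probes above background on all 6 arrays 21 were higher and 78 lower, where 21.7% and 30.1% of all such probes were called. After quantile normalization it was 42 and 63, where 27.4% and 28.1% of all such probes were called. The adult arrays lay entirely above the P10 arrays at 60 of the tested probes and entirely below them at 169, with 2 probes lacking an array, and this held for 31.9% and 45.9% of all probes.

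**Figure D1:**
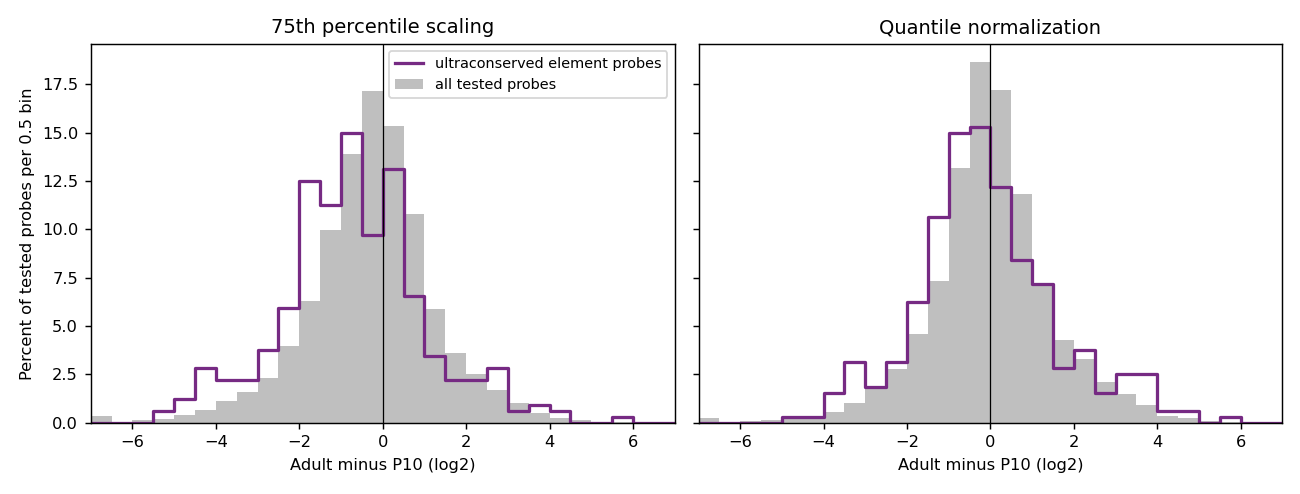
Distribution of the change (adult minus P10, log2) over the 320 tested ultraconserved element probes (purple outline) and over all 18362 tested probes (grey bars), as percent of tested probes per bin of 0.5, with 75th percentile scaling on the left and quantile normalization on the right. The median of the ultraconserved element probes is -0.77 on the left and -0.24 on the right, and that of all probes is -0.23 and -0.02; values beyond 7 are drawn in the outermost bins.

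Slide and single arrays moved these results. On slide 1 alone, which holds adult array 1 and the P10 arrays, the median change was -1.09, against -0.33 over all probes. With the slide as a block 49 probes were higher and 192 lower. Lower calls were then 79.7% of the calls, against 61.9% over all probes. Both runs took every array as its own sample, so slide and the number of samples changed together. The 1 adult array of slide 1 is in both assumed to vary like the others. With all 6 arrays as separate samples 55 were higher and 154 lower, against 29.3% and 41.3% of all probes. Without adult array 1 the counts were 81 and 167, where 32% and 41.3% of all probes were called. Without P10 array 3 they were 21 and 62, where 8.59% and 13.9% of all probes were called. The runs without adult array 1 and without P10 array 3 each leave 1 sample in a stage. Their spread comes from the other stage alone, so neither the higher nor the lower counts can be read as stronger or weaker evidence. The array differences within a stage had an SD of 0.44 to 0.82 over tested ultraconserved element probes and of 0.26 to 0.63 over all probes.

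The largest rise was at uc.305+, the plus-strand probe of element uc.305. It stood at 3.66, 4.31 and 4.34 in adults and -1.31, -1.45 and -1.89 at P10, as log2 signal after the 75th percentile of each array was taken off. All adult arrays lay above all P10 arrays, and the rise was 5.63 (SE 0.33, limma adjusted p = 0.00174), or 5.21 on slide 1 alone. The probe uc.355+ stood at 1.38, 2.58 and 2.51 in adults and -2.65, -1.99 and -2.26 at P10. It rose by 4.25 (SE 0.44, limma adjusted p = 0.00447), again with no overlap between the stages. At uc.340- the values were 2.92, 3.74 and 3.84 in adults and 0.20, 0.26 and -0.59 at P10, and it rose by 3.53 (SE 0.45, limma adjusted p = 0.00709). Adult array 1 was the lowest adult array at each of these 3 probes.

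Among the 10 largest fitted rises 8 were of the plus strand and 2 of the minus strand, and uc.462+ and uc.463+ have neighbouring numbers. At uc.462+ the adult arrays gave -1.04, 0.29 and 0.15 and the P10 arrays -3.92, -4.06 and -4.22, and the probe rose by 3.69 (SE 0.48, limma adjusted p = 0.00745). At uc.463+ the adult arrays gave -1.44, 0.43 and 0.43 and the P10 arrays -3.24, -3.17 and -4.02. This probe rose by 3.11 (SE 0.74, limma adjusted p = 0.0322), or by 2.70 without P10 array 3, which leaves 1 P10 sample. For uc.177+ the adult arrays lay far apart, at -2.47 on slide 1 and -0.31 and -0.31 on slide 2, and the P10 arrays at -5.29, -5.51 and -5.81. Its rise was 4.22 (SE 0.80, limma adjusted p = 0.018), and 3.07 on slide 1 alone. The probe uc.136+ stood at -1.59, -1.03 and 0.50 in adults and -3.56, -3.78 and -4.07 at P10 and rose by 2.94 (SE 0.51, limma adjusted p = 0.0148).

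The remaining 3 probes among these 10 were above background on all adult arrays and on no P10 array, so that only a bound can be given. For the bound, each P10 signal was taken as no lower than the dimmest signal that its array measured well above background. By it uc.313+ was at least 6.87-fold higher in adults (limma adjusted p = 0.00426), uc.37+ at least 5.32-fold (limma adjusted p = 0.00197) and uc.273- at least 3.34-fold (limma adjusted p = 0.0265). The last did not pass without P10 array 1 (limma adjusted p = 0.0566), and with normexp background correction it stood at -0.11. Its fitted rise was 2.03 on slide 1 alone and 2.48 without P10 array 3, each with 1 sample in a stage. With normexp on the median spot signals, which adds an offset of 50 and so compresses dim probes, 5 of the 10 rises were called. With quantile normalization all 10 were, at 3.11 to 5.74. Of the other 27 higher probes 16 were measured in both stages and rose by 0.54 to 2.54, the most at uc.246-. The remaining 11, above background on no P10 array, had bounds of at least 1.71-fold to 5.65-fold.

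**Figure D2:**
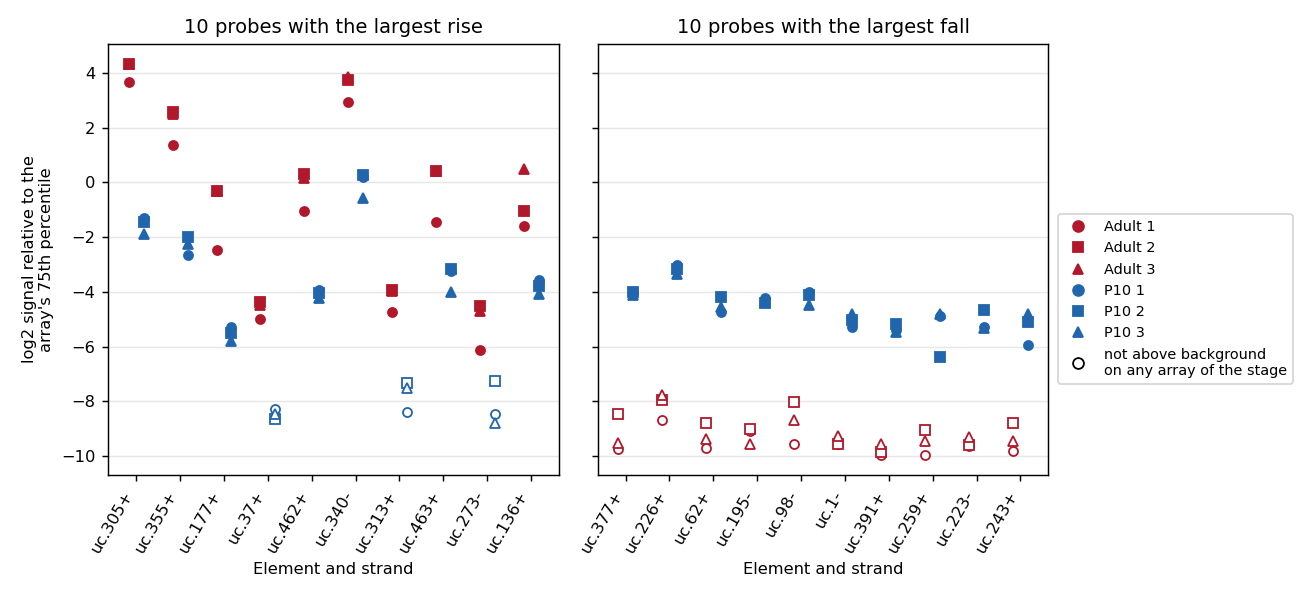
Log2 signal after subtraction of each array's 75th percentile, for the 10 probes with the largest fitted rise (left) and the 10 with the largest fitted fall (right) in adults, 1 symbol per array, red for adult and blue for P10 islets. Open symbols mark a stage in which no array was well above background; in the right panel all adult symbols are open, and in both panels the 3 adult arrays do not overlap the 3 P10 arrays.

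The 10 largest fitted falls were all at probes that no adult array measured above background, so each is given as a bound as well. Their order by fitted value is not an order of size, since by the bounds uc.214+ at 10.2-fold, uc.452- at 9.04-fold and uc.77- at 8.48-fold stood before several of them. At uc.226+ the P10 arrays gave -3.02, -3.16 and -3.36 and the adult arrays -8.67, -7.96 and -7.78. By the main scaling the probe was at least 27-fold lower in adults (limma adjusted p = 0.00201). With quantile normalization its fitted change, -4.25, was smaller than this bound. At uc.377+ the P10 arrays gave -4.00, -4.00 and -4.11 and the adult arrays -9.76, -8.45 and -9.51, at least 15.9-fold lower (limma adjusted p = 0.00175). The bounds were 13.3-fold for uc.98-, 13.1-fold for uc.195- and 11.7-fold for uc.62+, with limma adjusted p-values of 0.00444, 0.00132 and 0.00158. They were 8.39-fold for uc.1-, 7.5-fold for uc.223-, 7.38-fold for uc.243+, 7.11-fold for uc.259+ and 6.36-fold for uc.391+, with limma adjusted p-values of 0.00132 to 0.00365. The P10 arrays lay close together at most of these probes, while at uc.259+ P10 array 2 stood at -6.37 and the others at -4.87 and -4.82. On slide 1 alone the 10 fitted falls ran from -5.72 to -4.52, and with quantile normalization from -4.57 to -3.31, fitted values rather than measured sizes. All 10 named here were called with quantile normalization, whereas with normexp the call held for 1 of the 10, uc.226+.

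Among probes above background on all 6 arrays the largest fall was at uc.162-. This probe, the brightest of the elements at P10, stood at 4.46, 4.42 and 4.24 at P10 and 0.93, 1.42 and 1.26 in adults, a fall of 3.20 (SE 0.21, limma adjusted p = 0.00201). The P10 values lay far above all adult values. The next largest among these probes, chosen after their values were seen, were uc.276- at -2.61 (SE 0.49, limma adjusted p = 0.0182), uc.124- at -2.61 (SE 0.42, limma adjusted p = 0.0123) and uc.325- at -2.57 (SE 0.15, limma adjusted p = 0.00176). These 3, when quantile normalized, stood at -1.98, -2.08 and -2.40 and were still called. The brightest probes in adults were uc.305+ and uc.340-, both described among the rises, and uc.420-, whose change of 0.46 did not pass (limma adjusted p = 0.134). After uc.162- the brightest at P10 were uc.46-, which fell by 0.61 (limma adjusted p = 0.0344), and uc.84-, at -0.28 (limma adjusted p = 0.179). Signal height also depends on how strongly a probe binds its target. Beyond the 10 largest fitted falls there were 113 lower probes, of which 95 were above background on at least 1 array of each stage and stood between -4.11, at uc.122- with 1 of 3 adult arrays above background, and -0.55. The other 18, above background on no adult array, had bounds of at least 4.05-fold to 10.2-fold.

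The strands of one element often changed by different amounts. For the 71 elements with both strands tested, the difference between the plus-strand and the minus-strand probe was taken within each array, which removes any scaling common to an array, and its change from P10 to adult was tested. It passed for 43 of 71 elements (60.6%), 27 with the plus strand and 16 with the minus strand moving further up. For single probes, a different test, 52.3% of all tested probes were called. How often pairs of unrelated probes differ in this way was not tested. Leaving out the 20 elements with a strand above background on no array of a stage, it passed for 30 of 51 (58.8%), 20 and 10 by strand, and for 24 of these the difference was at least 2-fold. Of the 43 elements, 39 were called alike with quantile normalization. Slide 1 alone and the runs without adult array 1 or without P10 array 3 leave 1 sample in a stage, so no count is given for them. Across the 71 elements the changes of the strands had a Pearson r of 0.29 and a Spearman rho of 0.28, or an r of 0.21 over the 38 elements with both strands above background on all 6 arrays. Both probes of an element share the arrays. Called in the same direction were 14 elements, 3 as higher and 11 as lower on both strands, and in opposite directions 4, all with the plus strand higher and the minus strand lower. With quantile normalization uc.246 was called the other way round, its plus strand lower at -1.42 and its minus strand higher at 2.69.

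**Figure D3:**
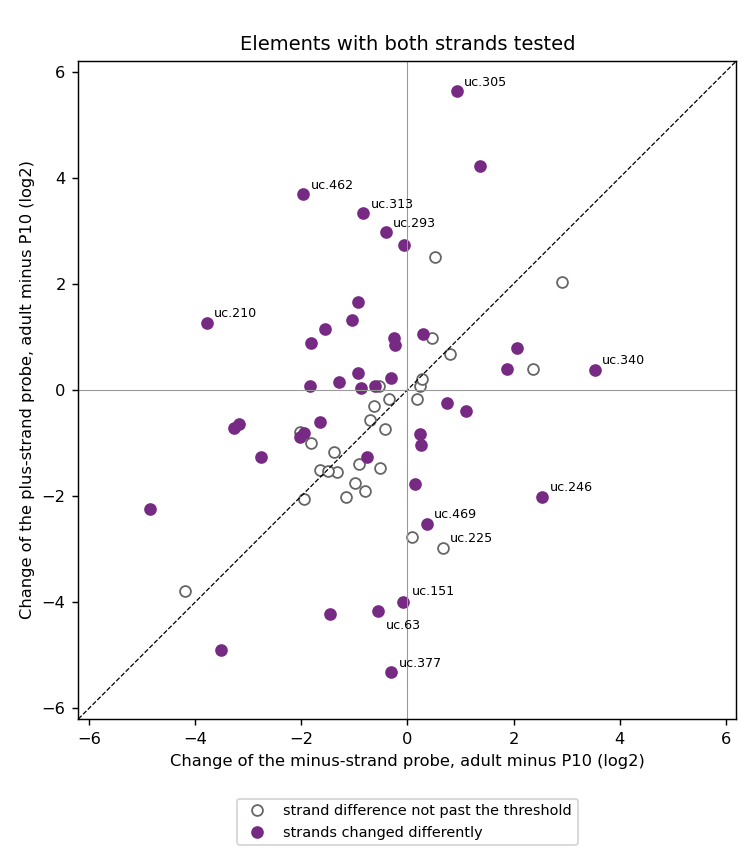
Change of the plus-strand probe (vertical axis) against that of the minus-strand probe (horizontal axis), adult minus P10 in log2, for the 71 elements with both strands tested. Filled points are the 43 elements whose strands changed differently by limma, open points the rest, and the dashed line marks equal change; the 12 elements farthest from the line are named. For the 20 elements with a strand below background throughout a stage the point shows the fitted value, not a measured size.

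Among elements with both strands above background on all 6 arrays the widest gap was at uc.462. Its plus-strand probe rose by 3.69, while its minus-strand probe stood at -7.05, -5.49 and -5.88 in adults and -4.13, -4.37 and -4.55 at P10 and fell by 1.96 (SE 0.52, limma adjusted p = 0.0407). The plus-minus difference was 6.01, 5.78 and 6.03 in adults and 0.21, 0.31 and 0.34 at P10. These arrays do not overlap, and the strands differed in change by 5.66 (SE 0.13, limma adjusted p = 0.00113), with a range of 5.59 to 5.72 when single arrays were left out. The fall of the minus strand by itself did not pass without adult array 3 (limma adjusted p = 0.0664). Without P10 array 3, which leaves 1 P10 sample, that strand stood at -2.11. At uc.313 the plus strand, above background on no P10 array, was at least 6.87-fold higher and the minus strand went from -2.28, -2.23 and -2.33 at P10 to -3.29, -2.96 and -2.95 in adults, a fall of 0.83 (SE 0.18, limma adjusted p = 0.0242). The strands differed in change by at least 12.2-fold (limma adjusted p = 0.00186).

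The other elements with opposite calls were uc.193 and uc.50. The probe uc.193+, also above background on no P10 array, had a bound of at least 3.13-fold (limma adjusted p = 0.0167), though it stood at -0.07 with normexp, and uc.193- fell by 0.93 (SE 0.13, limma adjusted p = 0.00839). At uc.50 the plus strand rose by 1.32 (SE 0.16, limma adjusted p = 0.0066) and the minus strand fell by 1.04 (SE 0.25, limma adjusted p = 0.0342). The plus strand was above background on 2 of 3 P10 arrays. With normexp it stood at 0.03, and uc.313+ at 0.32. The spot of uc.50- on adult array 3 was an outlier and left out, so adult array 2 stands alone for that sample. The strands differed in change by at least 5.97-fold (limma adjusted p = 0.00577) at uc.193 and by 2.35 (SE 0.34, limma adjusted p = 0.0096) at uc.50. All 4 elements kept both opposite calls with quantile normalization, and 0 of 4 kept both with normexp. On slide 1 alone and without P10 array 3, each with 1 sample in a stage, the strands kept their directions.

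**Figure D4:**
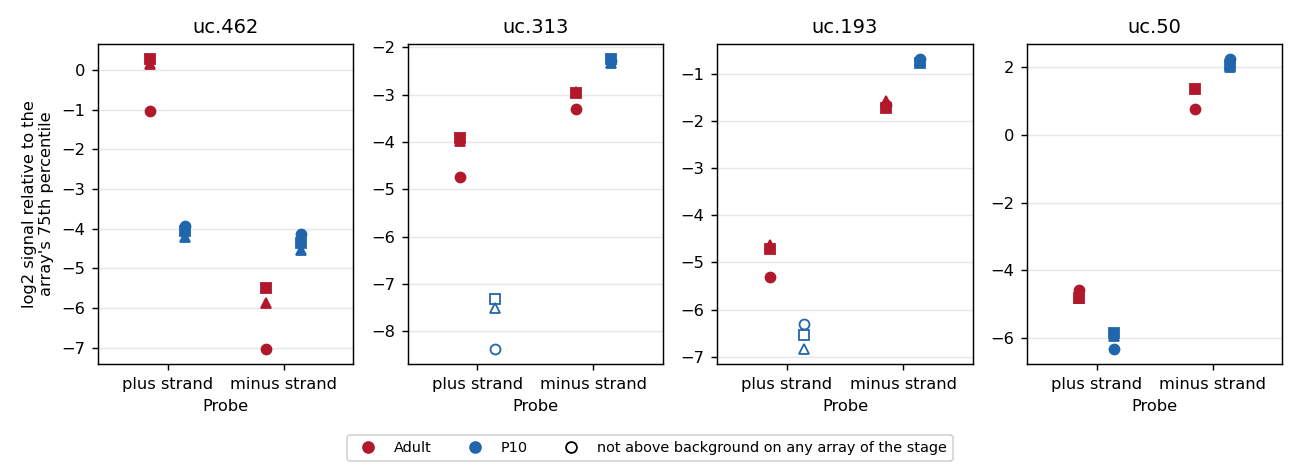
Log2 signal, after subtraction of each array's 75th percentile, of the plus-strand and minus-strand probes of the 4 elements whose strands were called in opposite directions, 1 symbol per array (circle, square and triangle for arrays 1, 2 and 3), red for adult and blue for P10 islets, open where no array of the stage was well above background. In each panel the adult symbols lie above the P10 symbols for the plus strand and below them for the minus strand; the height of a probe is not comparable with that of its partner.

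In other elements only 1 strand moved past the threshold. At uc.305 the minus strand stood at 0.93 beside the rise of 5.63, a strand difference of 4.70 (SE 0.18, limma adjusted p = 0.00132), but that strand was called as higher, at 1.20, with quantile normalization. At uc.340 the plus strand stood at 0.38 and the minus strand rose by 3.53, a difference of -3.15 (SE 0.30, limma adjusted p = 0.0039). At uc.246 the minus strand rose by 2.54 and the plus strand stood at -2.01 (limma adjusted p = 0.0677), and the difference was -4.55 (SE 0.58, limma adjusted p = 0.00734). At uc.377 the minus strand stood at -0.30 beside the fall of the plus strand, which no adult array measured above background, and the strands differed by at least 13-fold (limma adjusted p = 0.00277). At uc.210 no P10 array measured the plus strand above background. With that strand at its bound the strands differed by 23-fold (limma adjusted p = 0.00291). This is not a strict minimum, since the minus strand, measured on 2 of 3 adult arrays, entered at its fitted value. The minus strand was called as lower, and the plus strand as higher with quantile normalization but not by the main scaling. By strand, 26 of 165 tested plus-strand probes were higher (15.8%) and 58 lower (35.2%), and 11 of 155 minus-strand probes were higher (7.1%) and 65 lower (41.9%), against 21.3% and 31% of all probes. With quantile normalization the plus strand had 48 higher and 54 lower (29.1% and 32.7%) and the minus strand 29 and 52 (18.7% and 33.5%), against 28.4% and 28.7% of all probes. Whether the strands differ in these counts was not tested.

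Element numbers follow the order along the human chromosomes, so consecutive numbers are often neighbours. Of the 481 elements 30 had only higher calls, 108 only lower calls and 4 both. Runs of 2 or 3 consecutive numbers with calls in only 1 direction numbered 19 for lower calls and 2 for higher ones. Such runs also arise when 108 and 30 of 481 elements are scattered at random. Whether there were more runs than that was not tested. From uc.61 to uc.63 all 5 tested probes were lower: uc.61+ at -2.67, uc.63- at -0.55, and uc.62+, uc.62- and uc.63+ with bounds of at least 11.7-fold, 5.56-fold and 5.96-fold. From uc.299 to uc.301 the minus strands were lower, at -1.81 and -1.82 for uc.299- and uc.300- and at least 5.79-fold for uc.301-, while uc.299+ stood at 0.88 and was called as higher, at 1.15, with quantile normalization. The stretch from uc.462 to uc.472 went both ways, with uc.462+, uc.463+, uc.470+, uc.471- and uc.472+ higher and uc.462-, uc.467-, uc.468+ and uc.469+ lower. At uc.135 the plus strand was at least 2.61-fold higher, beside the rise of uc.136+. With quantile normalization the changes at uc.63- and uc.467- stood at -0.14 and -0.70 and did not pass.

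**Figure D5:**
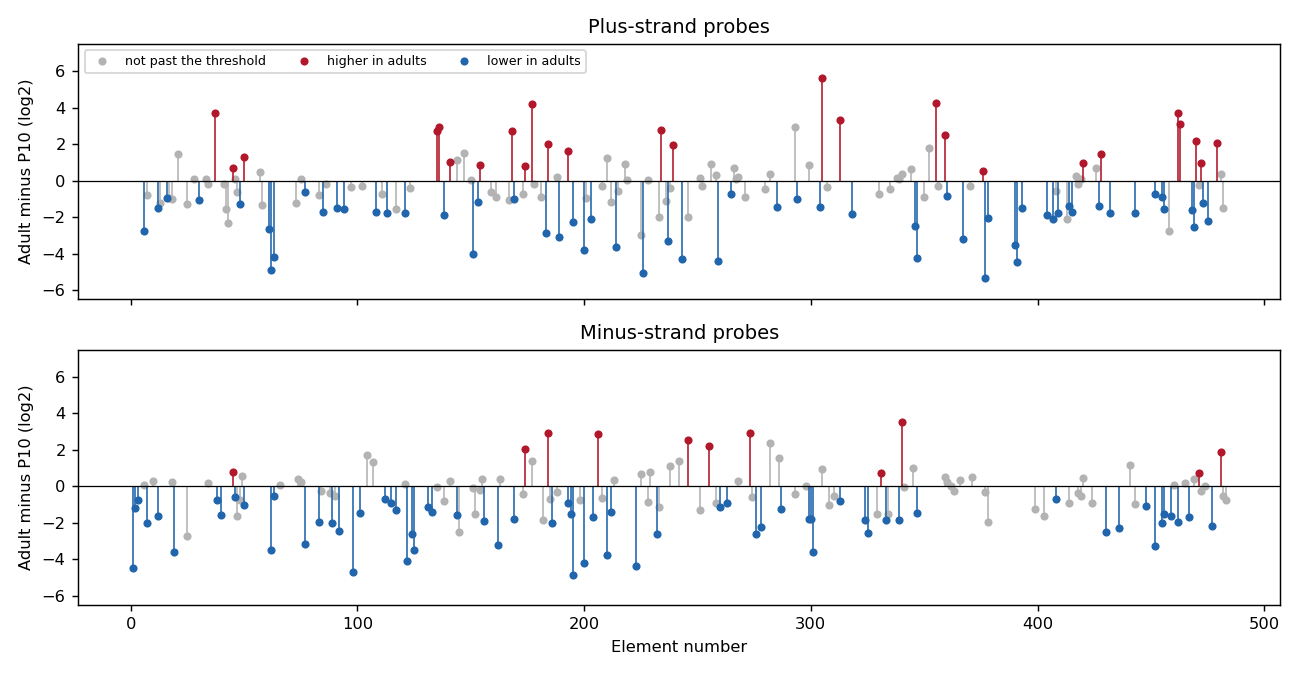
Change (adult minus P10, log2) of the tested plus-strand probes (top) and minus-strand probes (bottom) against element number, red where higher and blue where lower in adults and grey where the test was not passed. Higher and lower probes occur along the whole range from 1 to 483.

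Of 17 elements that have been studied by name in other tissues, 14 of 34 probes were tested, 7 were lower in adults (50%, against 31% of all probes) and 0 higher (against 21.3%). Above background on no adult array were 3 of the 7. Of the lower ones uc.63+, from an element in the nuclear export gene Xpo1, was at least 5.96-fold lower (limma adjusted p = 0.00205), with P10 arrays at -5.56, -6.06 and -5.14 and adult arrays at -9.70, -9.73 and -9.42. The minus strand uc.63- fell by 0.55 (limma adjusted p = 0.0472), a call that was lost with quantile normalization (limma adjusted p = 0.454). Its adult arrays, at -4.66, -3.93 and -5.19, overlapped the P10 arrays, at -3.97, -3.92 and -4.17. The call was also lost with 6 separate arrays (limma adjusted p = 0.154) and without adult array 3 (limma adjusted p = 0.547). At uc.48+, known from sensory neurons, the P10 arrays gave -4.83, -5.10 and -4.96 and the adult arrays -6.60, -6.11 and -5.56, a change of -1.26 (limma adjusted p = 0.0327), or -0.55 with quantile normalization. The probes uc.48- at -0.76 (limma adjusted p = 0.0815) and uc.73+ at -1.23 (limma adjusted p = 0.0637) did not pass. For 8 of the 17 elements, uc.8, uc.160 and uc.230 among them, neither strand was tested.

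Within these 17 elements, the one studied in renewal of the intestinal lining had a plus strand at -1.34 on adult array 1, -5.03 and -5.31 on adult arrays 2 and 3, and -2.88, -2.51 and -2.36 at P10. The adult arrays of the different slides lay on either side of P10, so the change of -0.73 did not pass (limma adjusted p = 0.681). On slide 1 alone the same probe stood at 1.24, and without adult array 1 at -2.64, with 1 adult sample in each case. The minus strand stood at -0.42 (limma adjusted p = 0.292) with all arrays and at -0.80 without adult array 1.

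Host genes known from the literature were set beside their elements, a pairing made after the values were seen. The splicing factor genes Tra2b and Srsf3 stood at -0.36 (limma adjusted p = 0.112) and 0.14 (limma adjusted p = 0.754). The plus strand of the Tra2b element was lower, at -1.90 (limma adjusted p = 0.00967), and that of the Srsf3 element by at least 6.02-fold (limma adjusted p = 0.011). For the latter P10 array 1, at -3.64, stood above the other P10 arrays, at -5.92 and -5.98. Xpo1 stood at -0.43 (limma adjusted p = 0.221) beside the fall of uc.63+. Pcbp2, an RNA-binding protein gene, stood at -0.14 (limma adjusted p = 0.515) and the plus strand of its element at 0.12 (limma adjusted p = 0.733), the latter at 0.82 and called with quantile normalization. The gene Ogt, for the enzyme that attaches N-acetylglucosamine to proteins, hosts uc.475. There uc.475+ went from -1.36, -1.47 and -1.54 at P10 to -4.01, -3.36 and -3.40 in adults, a fall of 2.22 (SE 0.26, limma adjusted p = 0.00612), and Ogt fell by 0.85 (SE 0.23, limma adjusted p = 0.0414). The difference between an element and its host was not tested.

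Genes of the kinds that hold or neighbour ultraconserved elements were also read from the arrays. Of 21 splicing and RNA processing genes 20 were tested, 5 were lower in adults (25%, against 31% of all probes) and 0 higher (against 21.3%), with a median of -0.20 against -0.23 over all probes. The largest falls were those of Hnrnpdl at -1.60 (limma adjusted p = 0.00519), whose protein binds RNA, Srsf7 at -0.88 (limma adjusted p = 0.00967), a splicing factor, and Ogt. With quantile normalization Ddx5, an RNA helicase gene, was also called, as higher. Of 32 developmental regulators 18 were tested, 6 were higher (33.3%, against 21.3% of all probes) and 5 lower (27.8%, against 31%), with a median of 0.14. The islet transcription factor gene Pax6 rose by 2.87 (limma adjusted p = 0.00279), and Sox5, also a transcription factor gene, fell by 2.01 (limma adjusted p = 0.00326). These lists were written with earlier results of these data known.

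Markers of other cells differed on the same arrays, and their part in the ultraconserved element results was not tested. All 8 enterocyte markers were lower in adults, and their mean level was -5.76 to -5.23 on adult and 4.10 to 4.16 on P10 arrays, with 1 of the 8 above background on no adult array. Of 7 acinar markers 6 were lower (4 with quantile normalization), at mean levels of 3.14 to 3.49 and 5.87 to 5.92. All 6 leukocyte markers were higher, at -0.74 to -0.69 and -3.67 to -3.60, with Cd79b and Itgam above background on no P10 array. Of 5 alpha cell markers 4 were higher and 1 lower, and of 6 beta cell markers 3 and 1, or 4 and 0 in both with quantile normalization. All 3 measured markers of dividing cells were lower, at -2.91 to -2.84 and -0.34 to -0.29. Of 5 neuron and Schwann cell markers 2 were higher and 1 lower, and of 2 delta cell markers 0 were called (1 as higher with quantile normalization). In whole islets, fewer cells of a type and less RNA per cell cannot be told apart.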

How the data were processed

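RNA had been labelled with Cy3 and hybridised to a 1-colour Agilent array. Each deposited scanner file gives the intensity of every spot, and the submitters' processing notes name Agilent Feature Extraction 11.0.1.1. The processed intensity used here is background-subtracted, per the file headers, with no scaling between arrays. The authors' deposited table of normalized log2 values for 4976 probes, method not given in the sources used here, served as an alternative.

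Each ultraconserved element probe had 1 spot. Outlier spots were left out, log2 signals of a probe averaged, and each array's 75th percentile subtracted. Adult minus P10 was fitted over all 18362 tested probes by limma (3.58.1, under R 4.3.3; lmFit, then eBayes). All of these probes entered the Benjamini-Hochberg adjustment. For strand differences, the plus minus minus values of 71 elements were added as further rows. The fit was tested on simulated data.

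Arrays were averaged after a check on probes printed 3 times. The variance of an array difference between probes, over that expected from spots of one probe, was 1.11 between adult arrays 2 and 3 and 0.975 between P10 arrays 1 and 2, against 13 to 15.5 for the other adult pairs and 1.07 to 1.27 for the other P10 pairs. Over bright probes it was 1.34 and 1.41, against 46.3 to 51.8 and 3.04 to 4.17, so a small difference within the averaged pairs is possible, and the P10 case is close.

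Named probes are those with the 10 largest rises and falls among called probes without overlap of arrays, elements with strands called in opposite directions, 17 elements studied elsewhere, and the 3 brightest per stage. Members, lists and rules were chosen with earlier results of these data known. Symbols came from RefSeq accessions in a gene table of the GRCr8 assembly.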

Additional observations from a re-analysis of the deposited data

How the results depend on the processing

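Under 17 alternatives no lower or higher call among the 160 called probes turned into a call in the opposite direction. Numbers of higher and lower probes were 37 and 123, and 43 elements had strands that changed differently, with a median change of -0.77. With the slide as a block 192 probes were lower (median -1.09), on slide 1 alone 195 (median -1.09). Quantile normalization gave 77 higher probes and a median of -0.24, and median scaling a median of -0.47. Normexp, run on the median spot signals in place of the mean signals, gave 8 higher and 19 lower probes and 21 elements. Lower calls were then 70.4% of the calls, against 56% over all probes. Among probes above background on all 6 arrays there were 21 higher, 78 lower and 21 elements, and with quantile normalization as well, added after seeing the data, 63 lower, 21 elements and a median of -0.14. Without a filter 462 probes were lower and 143 elements called. Lower calls were then 92.4% of the calls, against 69.9% over all probes. That run takes in the 458 probes above background on no array, whose median change was -1.03 after scaling. The authors' table gave 55 lower probes, 20 elements and a median of -0.14. Lower calls were 58.5% of the calls there, against 56.2% over all probes of that table.

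Leaving out single arrays gave 21 to 81 higher probes, 62 to 167 lower probes, 24 to 57 elements and medians of -0.85 to -0.48, the lowest counts without P10 array 3 and the highest without adult array 1. Both of these extremes come from runs that leave 1 sample in a stage, with the spread taken from the other stage alone. Their counts therefore cannot be compared with the main ones as evidence. Same-numbered arrays share only a number: their deviations correlated at -0.21, 0.08 and -0.24. With the replicate number as a block, over 6 separate arrays, 52 probes were higher, 147 lower and 41 elements called, with a median of -0.70, and without the block over 6 separate arrays 55, 154 and 47.

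Of 684 values for 44 named probes 593 kept direction and side of the threshold, 54 lost a call, 21 gained one and 16 changed sign. The plus strand of the element studied in the intestinal lining changed sign (1.24 with the slide as a block and on slide 1). So did the plus strand of the Pcbp2 element (-0.24 in both, -0.44 with normexp). The plus strand of the element numbered next after it also did (-0.46 in both, -0.42 with normexp, -0.04 to 0.57 with single arrays left out). The same held for the minus strand of the Tra2b element (0.14 with quantile normalization, with it on all 6 arrays and in the authors' table). The rest were uc.84- (0.02 with median scaling), uc.273- (-0.11 with normexp) and uc.193+ (-0.07 with normexp). The cause was not tested. Signal near background and 2 samples per stage limit what these arrays resolve.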
